A study of Rattus norvegicus with 4 samples.

Results

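The genes of the AP-1 transcription factor and its close partners were examined in cells that the labels call TSPCs, tendon stem/progenitor cells, which came from rat tendon. The 10 members were Fos, Fosb, Fosl1, Fosl2, Jun, Junb, Jund, Atf3, Maff and Mafk, taken by symbol from 32623 genes in the deposited table. Each symbol had 1 row, and all 10 passed the expression filter that left 14023 genes for testing. The cells had received U0126, which blocks MEK, the kinase step upstream of ERK (2 libraries), or DMSO, the solvent in which such compounds are given (2 control libraries). The sources used here state no dose, exposure time, rat strain or passage, nor whether the libraries of a group came from separate cultures or animals, so a p-value covers the scatter of these libraries alone, which may be technical. The comparison asks which transcripts differ between cells given U0126 and cells given DMSO. The activity of MEK and ERK was not measured in these RNA libraries.

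AP-1 is not one protein but a family of dimers. Proteins of the Fos and Jun groups, and some of the ATF and Maf groups, carry a leucine zipper through which they pair, and a basic stretch next to it that contacts DNA. Jun proteins can pair with each other, whereas Fos proteins need a partner from another group. The family is known as an early transcriptional output of growth factor signalling: ERK acts on Fos and Fosl1 both through transcription and by phosphorylating, and so stabilising, the proteins. In connective tissue cells AP-1 is known for driving matrix proteases and for its part in proliferation and migration.

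Total counts lay between 36888913 and 38671289 in the U0126 libraries and between 38890310 and 42785190 in the controls. Mitochondrially encoded genes took 4.82% to 5.64% of counts with U0126 and 2.98% to 3.48% in the controls. Collagen and stromal markers of the labelled cell type were abundant (15 of 16 at a mean of at least 1 TPM, a level per transcript length scaled to 1 fixed total per library), though Tnmd, a mature tendon marker, was too low to be tested. Of the lists for other cell types, leukocyte and macrophage markers summed to 11.9 to 12.8 TPM with U0126. In the controls they summed to 18.6 to 21.1 TPM. Only 2 of 9, Cd14 and Cd74, were at a mean of at least 1 TPM. Ptprc, Aif1 and Cd3e were among those at 0 counts in all libraries. The endothelial markers summed to 23.5 to 24.9 TPM with U0126 and 27.3 to 28.5 TPM in the controls, nearly all of it Egfl7, with 1 of 7 at that level and Cdh5, Emcn and Tie1 at 0 counts. Muscle and mural cell markers summed to 184 to 219 TPM with U0126 and 265 to 322 TPM in the controls. In this list 5 of 10 were at that level, with the highest means in Cspg4, Myh11 and Mcam, and Pax7 was at 0 counts. Of its 6 genes tested, 4 were called lower and 1 higher with U0126 (edgeR adjusted p under 0.05). Over all genes tested 11.5% were called lower and 8.41% higher. Of 15 tendon and mesenchymal markers tested, 7 were called higher and 2 lower. Of 5 leukocyte and macrophage markers tested, 2 were called lower and 0 higher. Among 2 epithelial markers tested 1 was called higher, and among 2 endothelial markers 0 were called. Epithelial markers summed to 3.87 to 3.99 TPM with U0126 and 2.75 to 3.05 TPM in the controls, with 1 of 8 at that level and 6, among them Epcam and Cdh1, at 0 counts. The part of these differences in the results that follow was not tested. In these bulk libraries, fewer cells of a type and less RNA per cell cannot be told apart.

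Promoter sequences were on record for 7 of the 10 members in the RefSeq table of the GRCr8 build. The 4 shown are those of the one member that fell (Fosl1) and of the 3 whose 250 bases before the gene start held any of the motifs searched on both strands. Those motifs were the AP-1 site TGANTCA, the related cAMP response element TGACGTCA, the ETS site CCGGAA and the CArG box bound by serum response factor. Capitals mark a motif match.
Fosl1 (chr1:212183635-212183884, plus strand): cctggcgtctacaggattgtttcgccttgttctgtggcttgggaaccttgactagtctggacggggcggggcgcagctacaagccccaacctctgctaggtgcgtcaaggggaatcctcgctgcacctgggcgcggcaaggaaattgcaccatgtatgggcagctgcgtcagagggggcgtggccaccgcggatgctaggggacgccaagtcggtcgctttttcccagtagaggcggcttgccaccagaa
Jund (chr16:18769772-18770021, minus strand): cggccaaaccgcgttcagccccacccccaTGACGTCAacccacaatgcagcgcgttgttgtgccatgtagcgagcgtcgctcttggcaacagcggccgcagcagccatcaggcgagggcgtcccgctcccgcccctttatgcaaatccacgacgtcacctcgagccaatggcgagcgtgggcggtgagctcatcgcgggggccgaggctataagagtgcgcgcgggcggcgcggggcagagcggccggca
Maff (chr7:112792537-112792786, plus strand): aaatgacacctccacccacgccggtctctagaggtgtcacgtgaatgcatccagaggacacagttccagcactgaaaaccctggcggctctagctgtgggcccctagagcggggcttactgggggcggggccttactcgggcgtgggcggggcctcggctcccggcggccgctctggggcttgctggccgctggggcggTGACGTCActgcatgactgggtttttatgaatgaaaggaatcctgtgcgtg
Mafk (chr12:19959193-19959442, minus strand): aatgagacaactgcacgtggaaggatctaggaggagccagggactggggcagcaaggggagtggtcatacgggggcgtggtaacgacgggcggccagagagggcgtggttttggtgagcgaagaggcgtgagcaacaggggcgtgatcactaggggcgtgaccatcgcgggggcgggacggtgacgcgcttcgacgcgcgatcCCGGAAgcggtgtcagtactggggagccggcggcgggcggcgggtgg
Jund and Maff each held 1 TGACGTCA, beginning 221 and 51 bases before the start, a motif present in 1.59% of 33469 rat promoter windows of this length. Mafk held 1 CCGGAA, beginning 47 bases before the start, against 12.6% of all windows. No window of the 7 members held TGANTCA or a CArG box, which 6.34% and 1.50% of all windows held. These are letter matches in a short window and say nothing of what binds there.

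Fosl1 was the only member that passed the test. Across the family 1 member fell, 0 rose and 9 did not pass edgeR's quasi-likelihood test at a Benjamini-Hochberg adjusted p of 0.05, whereas 19.9% of all genes tested passed it (11.5% lower, 8.41% higher). At an unadjusted p under 0.05, 3 members were lower (Fosl1, Atf3 and Mafk) and 0 higher, and DESeq2 and limma-voom also called 1 lower and 0 higher. The share of members called was thus not above that of all genes. The median log2 fold change of the 10 members was -0.32, against 0.02 over all genes tested. In 5 members (Fosl1, Jun, Atf3, Maff and Mafk) both U0126 libraries lay below both controls, as they did in 31.0% of all genes tested. In 0 members did both lie above, against 31.8% of all genes.

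**Figure D1:**
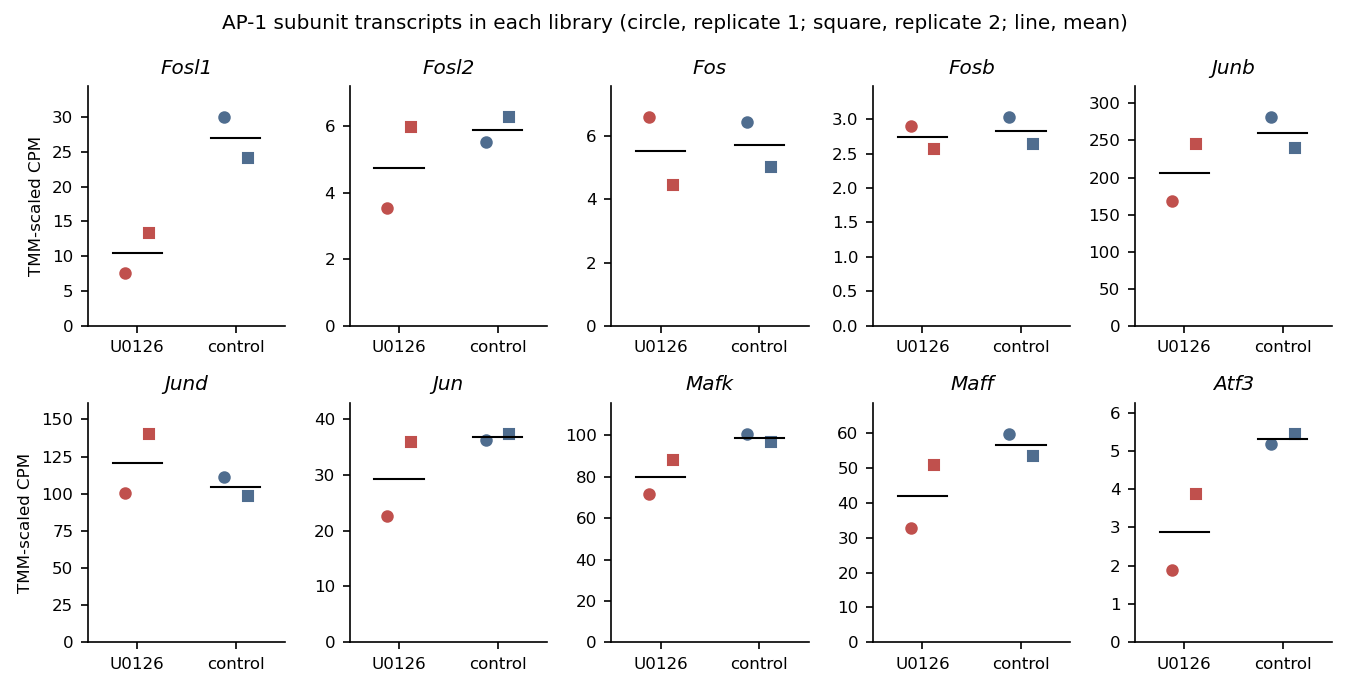
Level of each AP-1 subunit transcript in every library, in CPM, counts divided by the TMM-scaled library size (each panel has its own axis from 0). Circles are replicate 1, squares replicate 2 and lines the mean of each group of 2. The U0126 libraries of Fosl1, at 7.57 and 13.3 CPM, sit below the controls at 30.0 and 24.1 CPM, and in the Fosl2, Jun and Junb panels U0126 replicate 2 lies close to the controls.

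Much of the family's spread lay between the U0126 libraries. In 8 of 10 members U0126 replicate 1 was below U0126 replicate 2, against 49.1% of all genes tested. The median log2 ratio of replicate 1 to replicate 2 over the members was -0.59, against 0.01 over all genes. With only 1 library on each side this difference has no test. It was widest in Atf3 (log2 ratio -1.03), where only 2.10% of all genes tested had a ratio as low or lower, and in Fosl1 (-0.81). Fos and Fosb were the exceptions, with ratios of 0.57 and 0.17. The controls differed from each other less than this in every member except Fosb, by between 0.05 (Jun) and 0.36 (Fos) on the log2 scale. The same order of the U0126 libraries was seen in 11 of 14 ERK output genes, with a median log2 ratio of -0.30, and in 31 of 41 AP-1 target genes (median -0.26). In the other related lists 58.3% to 65.5% of the genes tested had this order.

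**Figure D2:**
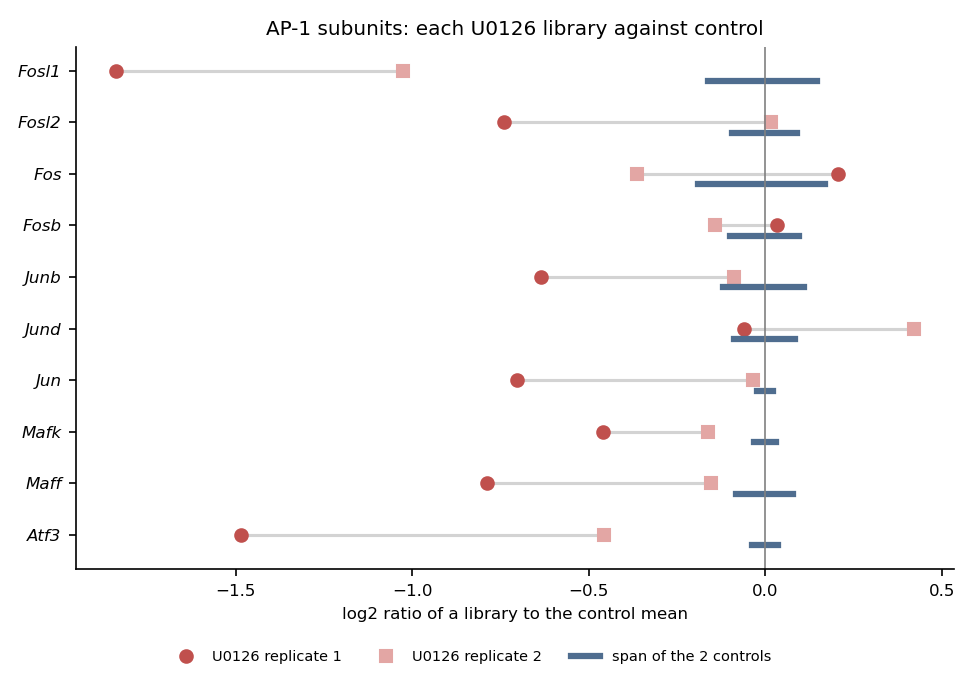
Log2 ratio of each U0126 library to the mean of the 2 controls, per AP-1 subunit (circle, U0126 replicate 1; square, U0126 replicate 2; bar, span of the controls). Replicate 1 lies to the left of replicate 2 in 8 of 10 members, with Fos and Fosb the other way round, and Fosl1 is the member in which both libraries lie furthest to the left of the controls.

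Among the Fos group, whose dimers with Jun are more stable than Jun dimers alone, Fosl1 (Fra-1; chromosome 1, 220826560 to 220835066, rn6) had 7.57 and 13.3 CPM in the U0126 libraries, against 30.0 and 24.1 CPM in the controls. Both treated libraries were below both controls. Fosl1 fell 2.60-fold, a log2 fold change of -1.38 ± 0.26 (SE, n = 2 per group; edgeR adjusted p = 0.0109). Only 4.49% of all genes tested had a fold change as low. Without control replicate 1 the call was lost (edgeR adjusted p = 0.0808), and over all alternatives the adjusted p (edgeR, DESeq2 or limma) lay between 2.52e-06 and 0.0808. Its log2 fold change was -1.02 without U0126 replicate 1 and -1.85 without U0126 replicate 2.

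Fosl2 (Fra-2; chromosome 6, 25598936 to 25616995), the closest relative of Fosl1, had 3.53 and 5.97 CPM with U0126, against 5.52 and 6.27 CPM in the controls. The groups overlapped, since U0126 replicate 2 lay between the controls (log2 fold change -0.31 ± 0.27 SE; edgeR adjusted p = 0.456). Fos itself (chromosome 6, 109300433 to 109303299), the classic immediate early gene, had 6.59 and 4.45 CPM with U0126, against 6.43 and 5.01 CPM in the controls. Here the U0126 libraries lay on either side of the controls (log2 fold change -0.05 ± 0.24 SE; edgeR adjusted p = 0.913). Fosb (chromosome 1, 80214494 to 80221710) had the lowest mean of the family in both groups, with 2.90 and 2.57 CPM with U0126, against 3.03 and 2.64 CPM in the controls. Its groups overlapped as well (log2 fold change -0.05 ± 0.23 SE; edgeR adjusted p = 0.906).

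Of the Jun group, which can bind DNA without a Fos partner, Junb (chromosome 19, 26092974 to 26094756) was the most abundant transcript of the family. It had 168 and 245 CPM with U0126, against 281 and 239.9 CPM in the controls, so that U0126 replicate 2 fell between the controls (log2 fold change -0.34 ± 0.18 SE; edgeR adjusted p = 0.235). Jun (c-Jun; chromosome 5, 114011189 to 114014277), the strongest activator of the group, had 22.6 and 35.8 CPM with U0126, against 36.1 and 37.3 CPM in the controls. Both U0126 libraries were lower, replicate 2 by very little (log2 fold change -0.33 ± 0.20 SE; edgeR adjusted p = 0.297). Jund (chromosome 16, 20485029 to 20486707), known for steady expression in resting cells, was the only member whose fitted change was above 0. Its libraries had 101 and 140 CPM with U0126, against 111 and 98.5 CPM in the controls, and the groups overlapped (log2 fold change 0.20 ± 0.16 SE; edgeR adjusted p = 0.428).

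Atf3, a stress-induced ATF factor that pairs with Jun proteins (chromosome 13, 109817728 to 109849632), had 1.90 and 3.87 CPM with U0126, against 5.17 and 5.44 CPM in the controls. Both U0126 libraries were lower and they differed from each other more than the controls did. The second widest fitted difference of the family did not pass (log2 fold change -0.88 ± 0.32 SE; edgeR adjusted p = 0.104). The small Maf proteins Maff and Mafk lack an activation domain of their own and pair with Nrf2 and Bach factors as well as with Fos. Maff (chromosome 7, 120580743 to 120592095) had 32.7 and 50.8 CPM with U0126, against 59.7 and 53.3 CPM in the controls, a log2 fold change of -0.44 ± 0.20 SE (edgeR adjusted p = 0.168). Mafk (chromosome 12, 16923990 to 16934706) had 71.6 and 88.1 CPM with U0126, against 101 and 96.5 CPM in the controls, a log2 fold change of -0.30 ± 0.12 SE (edgeR adjusted p = 0.118). In both small Mafs the groups did not overlap, and U0126 replicate 2 was the closer to the controls.

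How many members were called depended on which U0126 library was used. Without U0126 replicate 2, 7 members passed as lower: Fosl1, Fosl2, Jun, Junb, Atf3, Maff and Mafk. In that fit 32.1% of all genes tested passed, 17.3% as lower and 14.8% as higher. Without U0126 replicate 1, Fosl1 passed as lower and Jund as higher, with a log2 fold change of 0.42 (edgeR adjusted p = 0.0116, against up to 0.834 in its other alternatives), and 22.8% of all genes tested passed. Without control replicate 1 edgeR called 0 members, with 1 at an unadjusted p under 0.05, and 6.32% of all genes tested passed (DESeq2 and limma-voom were run on all 4 libraries only, where each called 1). Without control replicate 2, Fosl1 passed as lower, as 1 of 10 members against 6.24% of all genes tested. In these fits 1 library stands alone and is assumed to vary like the other group. For the 6 members besides Fosl1 that passed without U0126 replicate 2, that setting's adjusted p ran from 5.36e-04 (Maff) to 0.0235 (Fosl2), and none of them passed in any other alternative.

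**Figure D3:**
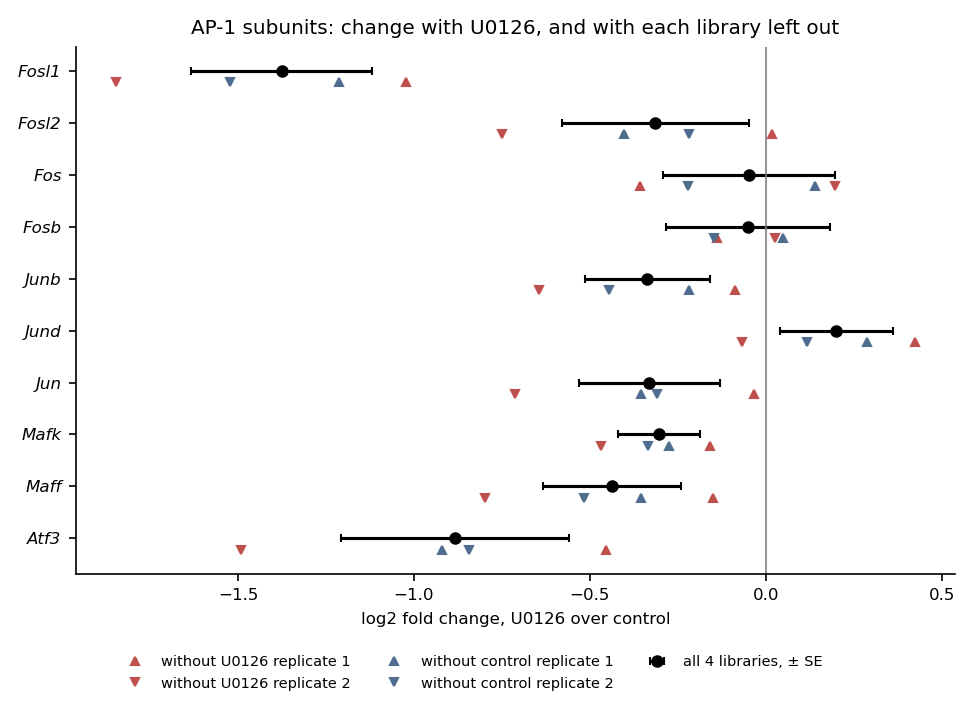
Log2 fold change of each AP-1 subunit, U0126 over control. Black points with bars give the fit to all 4 libraries ± SE, and triangles the fits with 1 library left out. Fosl1 stays between -1.85 and -1.02, while Fos, Fosb, Fosl2 and Jund have triangles on both sides of 0.

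Per unit of transcript length, on the deposited TPM scale, the order of the family was led by the Jun group under both conditions. Junb averaged 199 ± 54.3 TPM with U0126 and 262 ± 22.4 TPM in the controls (SD, n = 2 each), followed by Jund at 123 ± 29.8 TPM with U0126 and 112 ± 6.59 TPM in the controls. Mafk and Maff came next in both groups. In the controls Fosl1 was the fifth at 29.1 ± 3.67 TPM, above Jun at 21.3 ± 1.03 TPM and Fosl2 at 13.9 ± 1.63 TPM, and no neighbours in the order overlapped. With U0126 Fosl1 averaged 10.8 ± 4.28 TPM, and its range overlapped those of Jun (16.3 ± 5.35 TPM) and Fosl2 (10.7 ± 4.02 TPM). Fos (5.97 ± 1.59 TPM with U0126, 6.44 ± 0.957 TPM in the controls), Atf3 (2.54 ± 1.31 TPM with U0126, 4.97 ± 0.306 TPM in the controls) and Fosb (1.42 ± 0.116 TPM with U0126, 1.46 ± 0.00702 TPM in the controls) closed the order in both groups.

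The share of Fosl1 in the Fos group was lower, and that of Jund in the Jun group higher, in both U0126 libraries than in both controls. Shares are parts of a fixed whole, so a lower level of Fosl1 by itself raises the shares of the rest of its group. They restate the levels given above and are no further evidence. Fosl1 made up 32.0% and 41.1% of the summed Fos group TPM in the U0126 libraries, against 59.8% and 54.3% in the controls, a difference of -20.5 percentage points. The groups did not overlap, but 2 libraries against 2 cannot give less than p = 0.333 in an exact two-sided permutation test, which is the value obtained. Fosl2 made up 32.5% and 40.4% with U0126, against 24.0% and 30.9% in the controls, so that its share lay close to that of Fosl1 in each U0126 library. The summed Fos group was at 24.3 and 33.6 TPM with U0126, against 53.1 and 48.8 TPM in the controls. Within the Jun group, Jund took 37.1% and 35.9% of the summed TPM with U0126, against 28.1% and 28.6% in the controls, 8.20 percentage points more (exact two-sided permutation p = 0.333, again the smallest possible). Junb took 58.3% and 59.1% with U0126, against 66.9% and 65.6% in the controls. These shares differed little between the U0126 libraries, whose summed Jun group levels were 276 and 402 TPM, against 414 and 375 TPM in the controls. The level of Jund itself was 102 and 144 TPM with U0126, against 116 and 107 TPM in the controls. It thus lay below both controls in U0126 replicate 1 and above both in replicate 2. Junb was at 161 and 238 TPM with U0126, against 277 and 246 TPM in the controls. Mafk held 61.7% and 56.0% of the small Maf TPM with U0126, against 55.3% and 57.0% in the controls, and these groups overlapped.

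**Figure D4:**
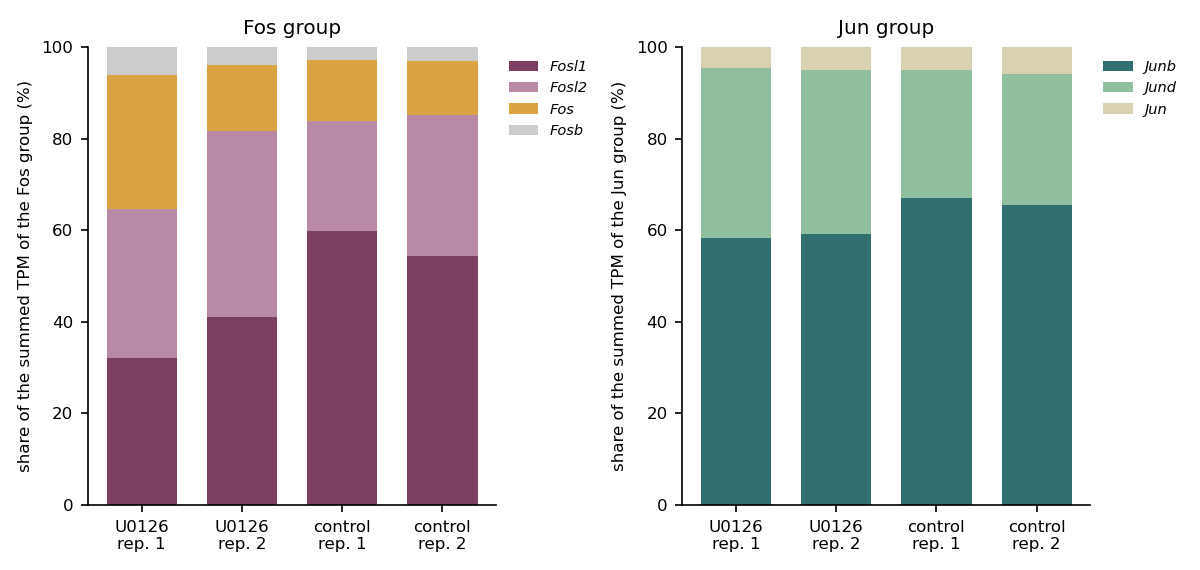
Share of each subunit in the summed TPM of the Fos group (left) and the Jun group (right), in %, 1 bar per library. The Fosl1 segment is 32.0% and 41.1% with U0126 and 59.8% and 54.3% in the controls, and the Jund segment 37.1% and 35.9% with U0126 and 28.1% and 28.6% in the controls.

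ERK output genes, the usual readouts of the inhibitor, fell in part. Of 14, the test called 8 lower and 0 higher while 6 did not pass, 57.1% called against 19.9% of all genes and 11.5% of all genes called lower (0 higher also at an unadjusted p under 0.05, and by DESeq2 and limma-voom), with a median log2 fold change of -0.79. Dusp5, a nuclear ERK phosphatase, fell 5.03-fold to 2.40 ± 0.0792 CPM, against 12.1 ± 0.0816 CPM in the controls (± SD, n = 2 each, edgeR adjusted p = 2.66e-04). Etv1 (5.09-fold) and Etv4 (3.97-fold), both of the ETS family, fell too, as did Phlda1 (2.46-fold), a growth factor response gene that is also on the list of AP-1 targets. Without control replicate 1 the log2 fold changes of Dusp5, Etv1, Etv4 and Phlda1 were -2.33, -2.32, -2.05 and -1.21. Fewer of the list passed there, as was so over all genes tested.

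Other leucine zipper factors were called about as often as all genes, and more of those called were higher than lower. The test called 5 of 28 higher and 1 lower, while 22 did not pass. That was 21.4% called, against 19.9% of all genes (8.41% higher, 11.5% lower). The median log2 fold change of the list was 0.19. Jdp2, a repressor that pairs with Jun at AP-1 sites, rose 1.62-fold to 61.4 and 59.8 CPM with U0126, against 37.0 and 38.0 CPM in the controls (edgeR adjusted p = 0.00275). Ddit3, the stress factor CHOP, rose 1.48-fold and the clock-related factor Tef 1.33-fold. Only 1 of the list passed without control replicate 1 or 2, and the calls of Jdp2 (edgeR adjusted p = 0.0580 and 0.0505; down to 5.19e-07 over its alternatives), Ddit3 and Tef were lost. More of the list passed without U0126 replicate 1 or 2, as was so over all genes tested.

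Of the genes that signal to AP-1, 29 were tested, and 5 were called lower and 1 higher, a share of 20.7% against 19.9% of all genes. With no filter 3 were called lower, and with DESeq2 2 were called higher. Srf, the serum response factor that activates Fos and Fosl1 transcription, fell 1.63-fold to 81.5 and 92.4 CPM with U0126, against 149 and 135 CPM in the controls (edgeR adjusted p = 0.00437). Rps6ka5, the kinase MSK1 that acts on chromatin of early genes, fell 1.55-fold, and Map2k1, which encodes a target of the inhibitor, 1.28-fold. Mapk7, the ERK5 kinase, rose 1.61-fold (edgeR adjusted p = 0.0116). Without control replicate 2 only Srf passed edgeR's test, and without control replicate 1 the number called was 0, with 2 higher and 4 lower at an unadjusted p under 0.05. Srf missed the threshold there (edgeR adjusted p = 0.0634; down to 4.29e-07 over its alternatives). More of the signalling genes passed without U0126 replicate 2, as was so over all genes tested.

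Turnover factors and co-regulators went both ways, with 4 of 22 called higher, 2 lower and 16 not past the threshold, 27.3% called against 19.9% of all genes. With library totals alone, and with no filter, 2 were called higher. Ier2, an early response gene induced together with Fos and Jun, fell 2.06-fold to 26.3 and 38.8 CPM with U0126, against 66.0 and 68.3 CPM in the controls (edgeR adjusted p = 0.00704). Trib2, a pseudokinase that works with the ubiquitin ligase of Jun, Cop1, fell 1.77-fold. Zfp36l1, which directs decay of AU-rich messages, rose 1.79-fold to 191 and 229 CPM with U0126, against 124 and 111 CPM in the controls (edgeR adjusted p = 0.00372). Nfatc1, a calcium-regulated factor that binds DNA beside AP-1, rose 1.94-fold. Nfatc1 lost its call without control replicate 1, and Ier2 and Zfp36l1 lost theirs without control replicate 2. Fewer of the list passed without control replicate 1 or 2, and more without U0126 replicate 2, as was so over all genes tested.

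Genes known as AP-1 targets changed in both directions, more of them downwards. The test called 17 of 41 lower and 5 higher, 53.7% against 19.9% of all genes (11.5% lower, 8.41% higher), with a median log2 fold change of -0.49. The members were recalled from the literature, where some are repressed by AP-1, and the difference between the lists was not tested. Tnc, the matrix glycoprotein tenascin C, fell 2.91-fold to 1041 and 1247 CPM with U0126, against 3106 and 3562 CPM in the controls (edgeR adjusted p = 4.17e-04). Hmga2, a chromatin architectural factor, fell 8.12-fold, though it was low, at 0.343 and 0.470 CPM with U0126, against 3.50 and 3.12 CPM in the controls. Ezr, the membrane-cytoskeleton linker ezrin, fell 2.87-fold. Mmp2, gelatinase A, rose 2.95-fold to 2234 and 1943 CPM with U0126, against 737 and 677 CPM in the controls (edgeR adjusted p = 2.48e-04). Named after their values were seen, the proteases Mmp3 and Mmp10 also fell, with log2 fold changes of -1.87 and -2.03. The Mmp3 controls lay far apart, at 226 and 134 CPM. Collagenase Mmp13 did not pass (edgeR adjusted p = 0.182). It had 25.5 and 30.7 CPM with U0126, against 50.7 and 29.7 CPM in the controls. Of the other Mmp genes listed, Mmp9 (log2 fold change -0.75) and Mmp12 (0 counts in both U0126 libraries) were called lower. Mmp14 (0.41) was called higher, as was Mmp2.

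The last list held 12 genes known as targets of small Maf and Nrf2 dimers. No Maf recognition element was searched for in them. The test called 5 higher and 0 lower (0 lower also at an unadjusted p under 0.05, and by DESeq2 and limma-voom). That was 41.7% called, against 19.9% of all genes and 8.41% of all genes called higher. With library totals alone, 1 was lower at an unadjusted p under 0.05 in edgeR's test. Without U0126 replicate 2 the calls of the list were no longer all higher. Nqo1, a quinone reductase, rose 4.11-fold to 1309 and 1159 CPM with U0126, against 293 and 306 CPM in the controls (edgeR adjusted p = 1.14e-04). Ftl1, the ferritin light chain, rose 1.53-fold, and Me1, malic enzyme, and Hmox1, haem oxygenase, each rose 1.41-fold. Without control replicate 1 or 2 only Nqo1 passed.

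**Figure D5:**
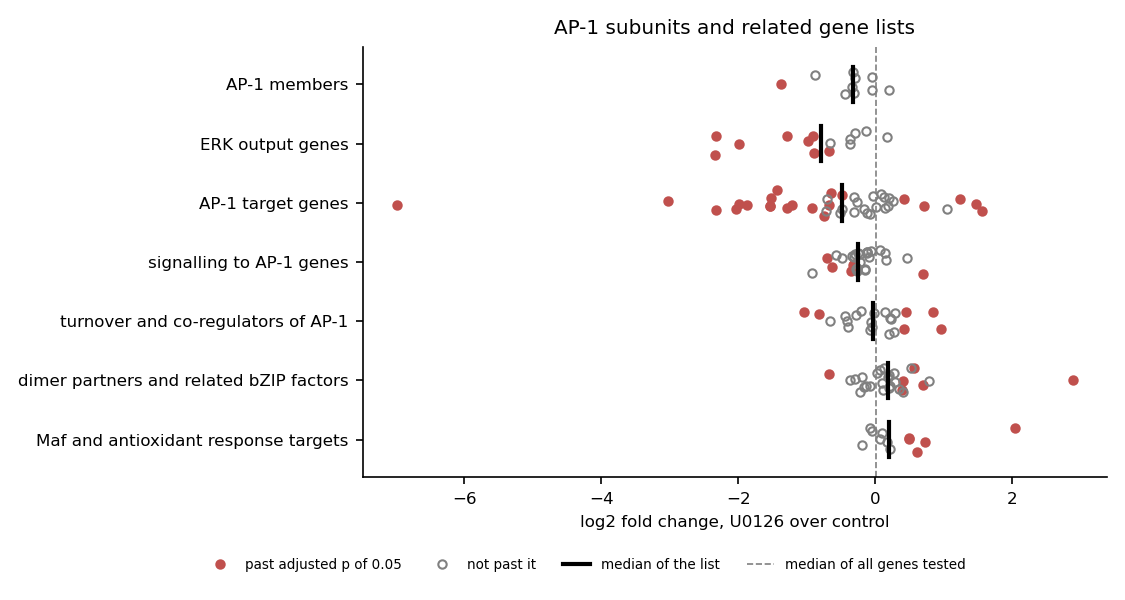
Log2 fold change, U0126 over control, of every tested gene in the AP-1 family and 6 related lists (filled, past the adjusted p of 0.05; open, not past it; bar, median of the list; dashed line, median of all genes tested). ERK output genes (median -0.79) and AP-1 target genes (-0.49) sit furthest left, and the AP-1 members have their median at -0.32; the point near -7 is Mmp12, which had 0 counts in both U0126 libraries, so its place depends on the prior count.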

How the data were processed

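RNA of rat TSPCs was sequenced in 2 U0126 and 2 DMSO libraries; extraction was with Trizol and libraries followed Illumina's protocol, per the labels' protocols. Positions are on rn6, the build given by the submitters' processing notes. The sources used here give no aligner, counter, annotation release or strand setting. Per the file headers, the authors deposited 3 values for each gene in each library: a count, TPM and FPKM. The deposited counts are whole and not normalized. The deposited TPM values were used to compare levels between genes, and the deposited FPKM values only to recompute shares. No other gene of the table overlapped a member's position.

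Genes passing edgeR's filterByExpr (minimum count 10, minimum total 15) were scaled by TMM and tested by glmQLFit and glmQLFTest (edgeR 4.0.16, limma 3.58.1, DESeq2 1.42.0, R 4.3.3), two-sided, with Benjamini-Hochberg adjustment over all genes. Fold changes carry a prior count of 0.125, and the SE is the absolute log2 fold change over the square root of F. The test was tried on simulated counts. Genes named besides the members were the 4 of each related list with the smallest adjusted p; some genes that this rule named are not reported here. The members and lists were chosen with earlier results of these data known. The alternatives were RLE factors, library totals, DESeq2, limma-voom, no filter, a stricter filter (1 CPM in every library), the replicate block and each library left out.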

Additional observations from a re-analysis of the deposited data

How the results depend on the processing

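With all 4 libraries kept, RLE factors, library totals alone, DESeq2, limma-voom, no filter and the stricter filter kept the number of called genes, both directions together, within 1.5 times in every list and called the same number of AP-1 members, 1. Within a direction, signalling genes called lower were 3 with no filter and those called higher 2 with DESeq2 (5 and 1 in the main analysis), and turnover genes called higher were 2 with library totals alone and with no filter (4 in the main analysis). The median of all genes moved by less than 0.1 on the log2 scale. Leaving out 1 library gave 899 to 4644 changed genes (2792 with all), and 0 to 7 AP-1 members. It gave 1 to 11 leucine zipper factors, 0 to 15 signalling genes, 2 to 10 turnover factors and co-regulators, 1 to 7 Maf targets and 5 to 11 ERK output genes. AP-1 targets stayed within 15 to 33. The direction of the fitted change turned in 4 uncalled members: without a library, the log2 fold change ran from -0.36 to 0.20 for Fos, from -0.15 to 0.047 for Fosb, from -0.75 to 0.017 for Fosl2 and from -0.069 to 0.42 for Jund. The cause was not tested. The Fosl1 share differed by -25.1 to -15.9 percentage points and the Jund share by 7.61 to 8.80.

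With the replicate number as a block, 2371 genes and 1 AP-1 member were called. Signalling genes called were then 2 higher and 2 lower, turnover genes 2 higher and 2 lower, and leucine zipper factors 5 higher and 0 lower, and Map2k1 lost its call (edgeR adjusted p = 0.0518). The labels share only numbers between the groups: the deviations of same-numbered libraries from their group means correlated at -0.03 over genes, so the block is no sign of pairing. The fewest counts behind a member's value were 72, for Atf3 in U0126 replicate 1, and the most 11150, for Junb in control replicate 1.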
